A study of Arabidopsis thaliana with 10 samples.

Results

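The Polycomb and vernalization repressors of *Arabidopsis thaliana* examined here were 10 genes, chosen by identifier from the 32548 genes of each deposited table: *CLF* (AT2G23380), *SWN* (AT4G02020), *VRN2* (AT4G16845), *EMF2* (AT5G51230), *FIE* (AT3G20740), *VRN1* (AT3G18990), *VIN3* (AT5G57380), *VRN5* (AT3G24440), *VEL1* (AT4G30200) and *LHP1* (AT5G17690). All 10 identifiers were found. The mRNA of whole seedlings was sequenced in 4 mutants with defects in an autonomous-pathway complex that represses the floral repressor gene *FLC*, to ask how the loss of its components changes transcript levels. The mutants were *fld*, *ld*, the double mutant *efl2 efl4* (written elf2/4 in the sample labels) and the double mutant *sdg26 aprf1*, each homozygous, and the wild type was Col-0, the background of every mutant. The *fld*, *ld*, *sdg26* and *aprf1* alleles are T-DNA insertions and the *efl2 efl4* alleles were made by CRISPR, so each genotype stands for a particular allele or allele pair. Each genotype had 2 libraries, 10 in all, from seedlings aged 10 days that were grown on plates at 23 °C in cycles of 16 h of light and 8 h of dark. No genotype was given a cold treatment according to the labels.

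Polycomb repressive complex 2 (PRC2) places trimethylation on lysine 27 of histone H3, a mark of silenced genes. In plants its catalytic subunits include CLF and SWN, which are joined by a zinc-finger subunit such as EMF2 or VRN2, by the WD-repeat protein FIE and by further partners. During a long winter, plants make the PHD-finger protein VIN3, which joins PRC2 together with the related proteins VRN5 and VEL1 at *FLC*. The gene is then kept silent after the return of warmth, a process called vernalization. VRN1, a DNA-binding protein with B3 domains, and LHP1, a chromodomain protein that binds the methylated histone, are needed for stable repression.

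Depth was 20455413 to 20768023 reads on genes per library. The genotype labels were checked first on the mutated genes. For 6 of these 6 genes both libraries of the mutant lay below both Col-0 libraries. The mutant mean was 9.08% (*FLD* in *fld*) to 76.5% (*EFL4* in *efl2 efl4*) of that of Col-0. Among all genes tested, 14.7% (*fld*) to 15.5% (*efl2 efl4*) were placed below Col-0 by this rule. *EFL2* and *EFL4* kept 70.4% and 76.5% of the Col-0 mean, so these genes alone do not establish the *efl2 efl4* label. Markers of the organs that a seedling sample could hold were also summed as normalized reads, which are reads scaled to a common library size. Leaf markers (3 genes) summed to 446643 to 527550 in the 8 mutant libraries and to 440909 to 442623 in Col-0. Root markers (5 genes) summed to 2106 to 2344 in mutants and to 2216 to 2322 in Col-0, and flower markers (4 genes) to 7 to 31.8 in mutants and to 13.8 to 27 in Col-0. Dividing-cell markers (4 genes) summed to 1119 to 1335 in mutants and to 1037 to 1121 in Col-0. The leaf sum was thus higher in all 8 mutant libraries, and the part of these markers in the values that follow was not tested. That sum was mostly *RBCS1A* and *CAB1*, with means of 364332 and 109095 over 10 libraries, against 1108 for *LHCB2.1*. Seed storage markers (4 genes) summed to 126 in replicate 2 of *efl2 efl4*, and this library therefore stood apart. The members together summed to 6300 to 6572 normalized reads in mutants, a range that held the 6431 to 6485 of Col-0. In whole seedlings, fewer cells of a type and less RNA per cell cannot be told apart.

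On the TAIR10.1 assembly the members lie on 4 chromosomes, among them *CLF* on chromosome 2 from 9955092 to 9960386 on the + strand and *VIN3* on chromosome 5 from 23246395 to 23249504 on the - strand. Their exons cover between 1563 bases (*FIE*, 13 exons) and 3514 bases (*CLF*, 17 exons). Of the 10 genes, 4 share exon bases with genes on the other strand, and the strand setting of the authors' counting is not given in the sources used here. The shared bases were 58 and 22 of *CLF*, 70 and 22 of *FIE*, 26 of *VIN3* and 12 of *LHP1*. Reads from these bases cannot be assigned, and the gene opposite *VIN3* had 276 to 401 reads per library. For 9 members every window of 50 bases, the read length, was unique in the genome, whereas 93.4% of the windows of *VRN1* were.

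The promoters of *VIN3*, *VRN5* and *VEL1* are shown because these genes encode proteins of the same family, yet *VIN3* was nearly silent in all 10 libraries. *VRN5* and *VEL1* were not, whereas the further relatives *VEL2* and *VEL3* also were, at 0 to 1 read per library. Each sequence is the 250 bases before the annotated start of the gene in RefSeq (TAIR10.1, - strand), and capitals mark a motif found by search.

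*VIN3*, chr5:23249505-23249754: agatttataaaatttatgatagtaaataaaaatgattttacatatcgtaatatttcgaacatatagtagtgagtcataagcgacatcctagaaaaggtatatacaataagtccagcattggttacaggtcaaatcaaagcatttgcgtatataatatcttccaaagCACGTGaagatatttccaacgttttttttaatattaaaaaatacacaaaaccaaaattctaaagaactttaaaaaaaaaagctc

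*VRN5*, chr3:8878482-8878731: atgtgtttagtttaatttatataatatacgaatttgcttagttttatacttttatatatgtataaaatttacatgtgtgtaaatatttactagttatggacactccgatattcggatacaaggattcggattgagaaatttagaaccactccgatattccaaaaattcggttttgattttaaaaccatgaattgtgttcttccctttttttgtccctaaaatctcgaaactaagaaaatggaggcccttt

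*VEL1*, chr4:14790502-14790751: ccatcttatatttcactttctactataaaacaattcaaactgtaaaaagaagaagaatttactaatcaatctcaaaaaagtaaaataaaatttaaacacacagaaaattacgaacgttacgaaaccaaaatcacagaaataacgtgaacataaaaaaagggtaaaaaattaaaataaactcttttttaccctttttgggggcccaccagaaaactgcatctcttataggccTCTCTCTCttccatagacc

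The search covered 6 motifs on both strands in these 250 bases: the G-box CACGTG, the evening element AAAATATCT, the C-repeat core CCGAC, the RY motif TGCATG, the telobox AAACCCTA and the GAGA repeat GAGAGAGA. *VIN3* had a G-box 84 bases before its start, *SWN* had a G-box 30 bases before its start and *VEL1* had a GAGA repeat 19 bases before its start, read here on the other strand as TCTCTCTC. The other 7 members had none of the 6. Over 27443 promoters of the same length, 6.49% held the G-box, 2.36% the evening element, 12% the C-repeat core, 8.43% the RY motif, 4.49% the telobox and 4.91% the GAGA repeat. These matches are descriptions of letters and say nothing about binding.

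The 10 genes were compared between each mutant and Col-0, the comparison by which the study looked for transcripts that depend on the complex. *FLC* had 622 and 609 normalized reads in *fld*, 370.5 and 388 in *efl2 efl4*, 493 and 522 in *ld*, and 166 and 143 in *sdg26 aprf1*, against 4.00 and 3.95 in Col-0. No repressor gene passed the test in any mutant. Among 36 differences, for the 9 members with enough reads in 4 mutants, the highest value was 12.3%, for *VRN2* in *efl2 efl4*, and the lowest value was −8.78%, for *VRN5* in the same mutant. *VIN3* had 1 to 5 reads per library and was left out by the filter on low values.

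The catalytic subunits of PRC2 were both well detected. *CLF* had 502 and 531 normalized reads in *fld*, 543 and 516 in *efl2 efl4*, 529.7 and 549 in *ld*, and 542 and 530.3 in *sdg26 aprf1*, against 506 and 562 in Col-0. The Col-0 pair spanned the highest *CLF* value of all libraries and nearly the lowest, and no mutant pair was separate from it. *SWN*, whose product acts beside CLF, had 1049 and 915 normalized reads in *fld*, 996 and 874 in *efl2 efl4*, 935 and 887 in *ld*, and 924 and 886 in *sdg26 aprf1*, against 989.5 and 911 in Col-0. All mutant pairs overlapped Col-0, and within each genotype replicate 1 was the higher. The log2 fold changes (log2FC, mutant over Col-0) of *CLF* ranged between −0.05 in *fld* and 0.01 in *ld*, and those of *SWN* between −0.07 in *sdg26 aprf1* and 0.04 in *fld*.

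The alternative zinc-finger subunits, which give PRC2 different roles in development, were also close to Col-0. *VRN2*, needed to keep *FLC* silent after cold, had 592 and 621 normalized reads in *fld*, 647 and 705 in *efl2 efl4*, 610.4 and 638 in *ld*, and 607 and 618 in *sdg26 aprf1*, against 612 and 588 in Col-0. Both libraries of *efl2 efl4* lay above every other library, with a mean of 676 ± 41.1 in *efl2 efl4* and 599.7 ± 16.9 in Col-0 (SD, n = 2 each). The log2FC was 0.17, with a 95% interval of −0.11 to 0.44 (standard error 0.11; limma, adjusted *p* = 0.999). With the replicate number as a block its adjusted *p* was 0.474. *EMF2*, which holds back flowering during seedling growth, had 686 and 688 normalized reads in *fld*, 653 and 675 in *efl2 efl4*, 686 and 631 in *ld*, and 728 and 679 in *sdg26 aprf1*, against 699.7 and 671 in Col-0. Its log2FC lay between −0.06 in *ld* and 0.04 in *sdg26 aprf1*, and no mutant pair was separate from Col-0.

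*FIE*, the WD-repeat subunit that binds the catalytic subunits, had 363 and 318 normalized reads in *fld*, 355 and 335 in *efl2 efl4*, 333 and 328 in *ld*, and 329 and 326 in *sdg26 aprf1*, against 339.8 and 303 in Col-0. Its log2FC had a positive sign in 4 of 4 mutants, 0.03 to 0.10, with standard errors of 0.12 to 0.13, so these values were smaller than their errors. The 4 comparisons share the Col-0 libraries, of which replicate 2 held the lowest *FIE* value of all 10. *LHP1*, annotated as *TFL2* and encoding the reader of the PRC2 mark, had 375 and 400.3 normalized reads in *fld*, 417 and 403 in *efl2 efl4*, 441 and 374 in *ld*, and 411 and 404 in *sdg26 aprf1*, against 374 and 435 in Col-0. The spread within *ld* and within Col-0 exceeded every difference between genotype means, and the log2FC lay between −0.06 in *fld* and 0.02 in *efl2 efl4*.

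*VRN1*, the B3-domain protein of vernalization, had 1171 and 1185 normalized reads in *fld*, 1140.2 and 1145 in *efl2 efl4*, 1142 and 1229.8 in *ld*, and 1202 and 1099 in *sdg26 aprf1*, against 1176 and 1226 in Col-0. Its log2FC had a negative sign in 4 of 4 mutants, −0.08 to −0.02, with standard errors of 0.08 to 0.10, and only in *efl2 efl4* were both libraries below both of Col-0.

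Of the PHD-finger genes, the cold-induced *VIN3* had 3 and 4 reads in *fld*, 1 and 2 in *efl2 efl4*, 5 and 4 in *ld*, and 4 and 3 in *sdg26 aprf1*, against 2 and 3 in Col-0. These add up to 31 reads in 10 libraries, with an exact 95% Poisson interval of 21.1 to 44.0 that covers counting error only. All libraries were near the 3 reads that a count of 0 allows, so no fold change is given. With no filter on low values *VIN3* passed in no mutant (limma, unadjusted *P* of 0.122 to 0.355), and a difference was not detectable at this depth. *VRN5* had 292 and 335 normalized reads in *fld*, 317 and 279 in *efl2 efl4*, 331 and 309.7 in *ld*, and 287 and 378 in *sdg26 aprf1*, against 341 and 309 in Col-0. Its lowest library was in *efl2 efl4* and its highest in *sdg26 aprf1*, and the wide pair of *sdg26 aprf1* surrounded Col-0. *VEL1*, the third protein of the family, had 1333 and 1554 normalized reads in *fld*, 1385 and 1366 in *efl2 efl4*, 1395 and 1577 in *ld*, and 1538 and 1463 in *sdg26 aprf1*, against 1391 and 1478 in Col-0. The pairs of *fld*, *ld* and *sdg26 aprf1* overlapped Col-0, and the *efl2 efl4* pair lay below it by less than the spread within *fld*.

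**Figure D1:**
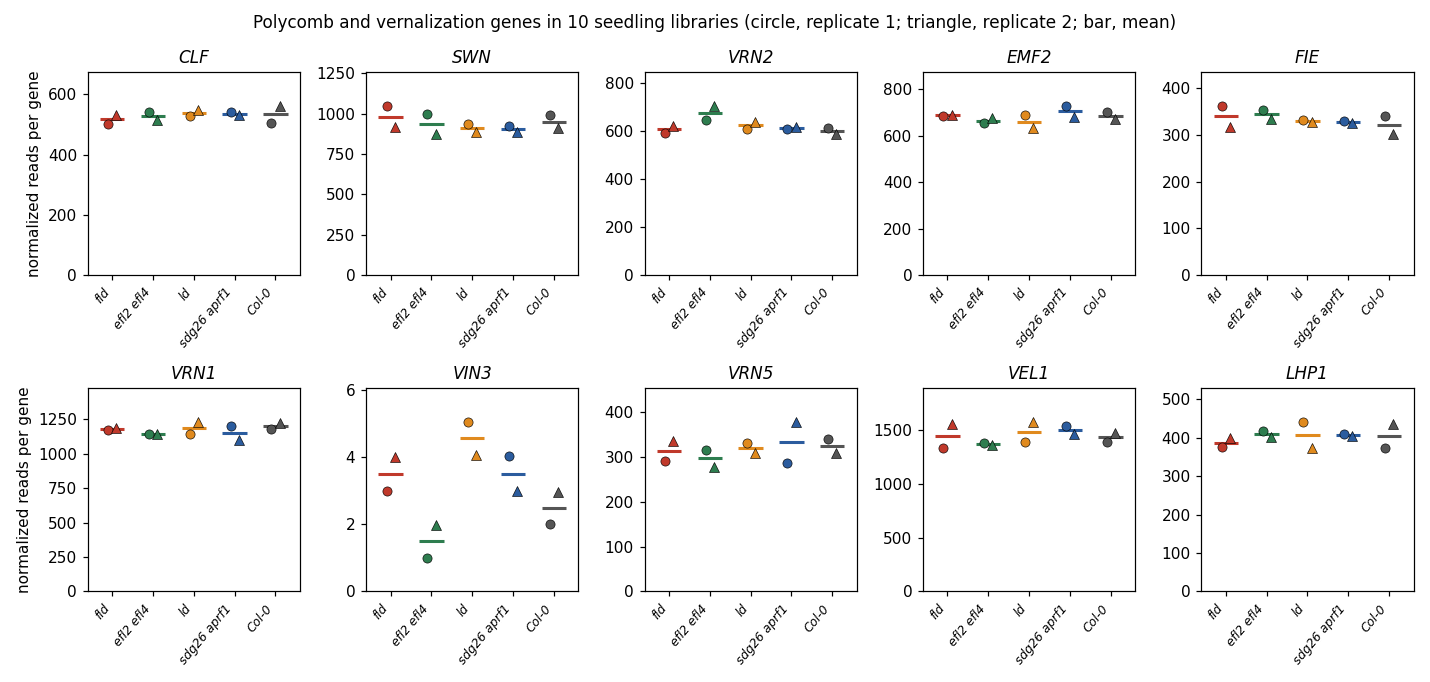
Normalized reads of the 10 genes (y axis, from 0, a scale per panel) in *fld*, *efl2 efl4*, *ld*, *sdg26 aprf1* and Col-0 (x axis), with a circle for replicate 1, a triangle for replicate 2 and a bar for the mean of 2. The genotype means lie close together in 9 panels, *VRN2* is highest in *efl2 efl4* at 647 and 705, and *VIN3* stays between 0.996 and 5.04 normalized reads.

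No member was called in any mutant by limma. A call needed a |log2FC| of at least 1 and an unadjusted *P* under 0.01, the thresholds of the study. In *fld*, 0 of 9 tested members passed, against 0.394% of all genes tested. The counts were likewise 0 of 9 in *ld* (0.504% of all genes), in *efl2 efl4* (0.434%) and in *sdg26 aprf1* (0.498%). By an adjusted *p* under 0.05 the counts were again 0 of 9 in each mutant, with 0.00997% of all genes in *fld*, 0.00499% in *efl2 efl4*, 0.00499% in *ld* and 0% in *sdg26 aprf1*. No member had an unadjusted *P* under 0.05, against 3.79% of all genes in *fld*, 4.7% in *efl2 efl4*, 4.26% in *ld* and 4.56% in *sdg26 aprf1*. With the replicate block, 0 of 9 passed the thresholds in each mutant, against 0.658% of all genes for *fld*, 0.844% for *efl2 efl4*, 0.864% for *ld* and 0.698% for *sdg26 aprf1*. By adjusted *p* with the block it was again 0 of 9, against 2.25% for *fld*, 2.86% for *efl2 efl4*, 3.38% for *ld* and 0.0399% for *sdg26 aprf1*. The smallest unadjusted *P* of a member was 0.178 in limma, 0.149 in limma with no filter on low values, 0.10 with the block, 0.0638 in limma fitted on all 10 libraries at once (*VRN2* in *efl2 efl4*), 0.180 in the quasi-likelihood test of edgeR, 0.358 in its exact test and 0.344 in DESeq2. With shares of this size, 0 of 9 is near the background and is no result about the members as a group.

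The 95% intervals of all 36 log2FC lay within −0.47 (*VRN5* in *efl2 efl4*) and 0.46 (*VRN5* in *sdg26 aprf1*), or −27.9% and 37.9%. With the replicate block they lay within −0.38 and 0.42. The median log2FC of the tested members was 0.0023 in *fld*, −0.03 in *efl2 efl4*, 0.0063 in *ld* and 0.02 in *sdg26 aprf1*, and the sign was positive in 20 of the 36 and negative in 16. With 2 libraries per genotype, a change smaller than the distance from a gene's log2FC to the end of its interval was not detectable. The smallest two-sided *p* that an exact permutation of 2 libraries against 2 allows is 0.333, and the tests therefore borrowed the spread of all genes.

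**Figure D2:**
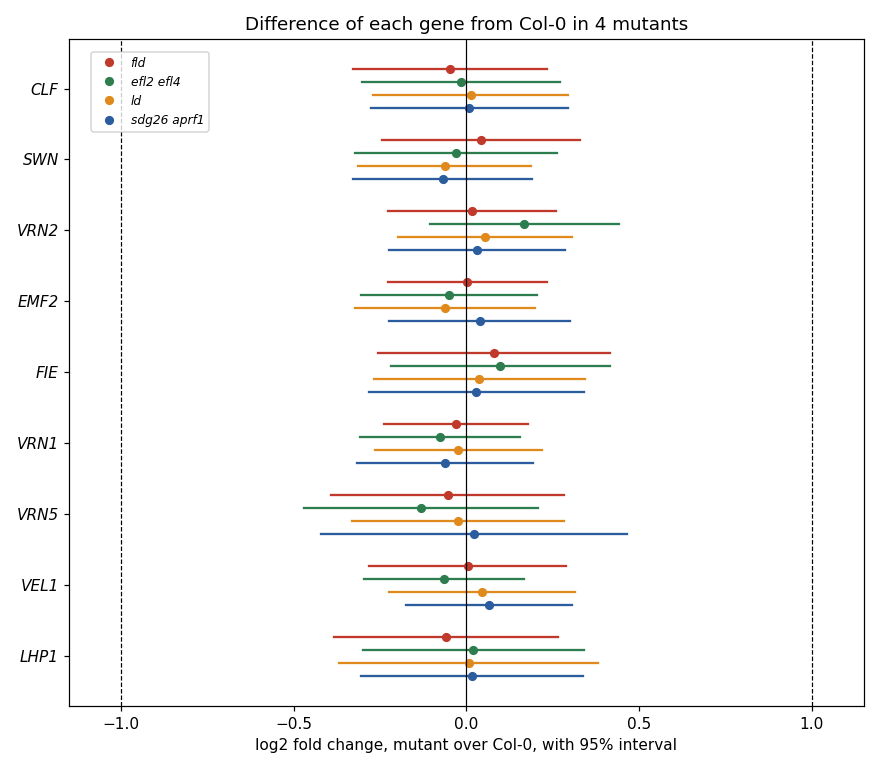
The log2FC of mutant over Col-0 (x axis) with its 95% interval from limma for 9 genes (y axis) in *fld*, *efl2 efl4*, *ld* and *sdg26 aprf1*, where dashed lines mark the threshold of 1 on either side. All 36 intervals cross 0 and none reaches a dashed line, the widest being that of *VRN5* in *sdg26 aprf1*, from −0.42 to 0.46.

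Among the 9 tested members, separation from Col-0 was seen in *efl2 efl4* alone. There 1 of 9 tested members, *VRN2*, had both mutant libraries above both Col-0 libraries, against 16.1% of all genes, and 2 of 9, *VRN1* and *VEL1*, had both below, against 15.5%. In *fld*, 0 of 9 were above and 0 of 9 below, against 14.6% and 14.7% of all genes. The same counts of 0 were found in *ld* (14.9% and 15.2%) and in *sdg26 aprf1* (14.8% and 15.4%). The counts in *efl2 efl4* are near the shares of all genes and are no result about the members. The difference between *efl2 efl4* and the other mutants in these counts was not tested. Replicate 2 of *efl2 efl4*, the library with the raised seed markers, was also the highest *VRN2* library at 705, and replicate 1 at 647 was the second highest of the 10. Without replicate 2 the log2FC of *VRN2* was 0.10, with an unadjusted *P* of 0.553 in limma, and without replicate 1 it was 0.23, with one of 0.203. In the F test of edgeR among all genotypes, the unadjusted *P* of *VRN2* was 0.825 without replicate 2 of *efl2 efl4*, against 0.290 with all libraries. *VIN3* was left out of these counts. Its reads were 2 and 3 in Col-0, 3 and 4 in *fld*, 4 and 3 in *sdg26 aprf1* and 1 and 2 in *efl2 efl4*. Each of these mutants thus shared a read count with Col-0, and its normalized reads were separate from Col-0 only through the scaling. In *ld* the reads were 5 and 4, too few for a comparison.

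Among all 5 genotypes at once, an F test of edgeR on the recovered reads called 0 of 9 members at an adjusted *p* under 0.05, against 0.249% of all genes. Their unadjusted *P* values were 0.290 (*VRN2*) to 0.943 (*CLF*), with none under 0.05, against 6.9% of all genes. With the replicate block the count stayed 0 of 9, against 4.06% of all genes, and the smallest adjusted *p* of a member was 0.459. Among the 4 mutants alone the count was also 0 of 9, against 0.165% of all genes, or 2.7% with the block. *FLC* differed in the test of 5 genotypes, with an adjusted *p* of 1.9e-05.

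Per kilobase of exon the members fell into an order that was much the same in every library. *VEL1* averaged 524 ± 31.3 normalized reads per kb and *VRN1* 516 ± 18.1 (SD over 10 libraries), and neither was above the other in more than 5 of 10 libraries. *VRN2* followed at 316 ± 17.2, above *SWN* at 275 ± 16.7 in 9 of 10 libraries, and *SWN* exceeded *EMF2*, at 251 ± 9.61, in 10 of 10. Ranges over the libraries overlapped in both cases. *FIE* averaged 213 ± 10.9 and *LHP1* 198 ± 11.8, with *FIE* the higher in 8 of 10 libraries. Below them came *CLF* at 151 ± 5.40 and *VRN5* at 125 ± 11.7, in this order in 10 of 10 libraries. *VIN3* averaged 1.37 ± 0.536 normalized reads per kb, and *VRN5*, the next in order, was 91.5 times as high. Ranges over the libraries did not overlap between *VRN1* and *VRN2*, *EMF2* and *FIE*, *LHP1* and *CLF*, and *VRN5* and *VIN3*. Thus *SWN* exceeded *CLF*, the catalytic pair, and *VRN2* exceeded *EMF2*, the zinc-finger pair, per length in whole seedlings of all genotypes.

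**Figure D3:**
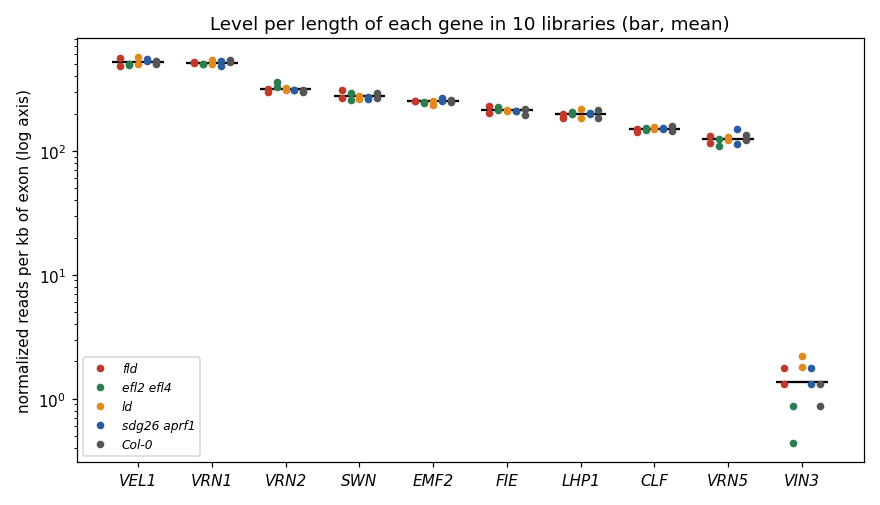
Normalized reads per kb of exon (y axis, log axis) of the 10 genes (x axis, ordered by mean) in the 10 libraries, coloured by genotype, with a bar for the mean. The means run between 524 for *VEL1* and 125 for *VRN5*, and *VIN3* stands apart at 1.37.

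The spread over the 10 libraries was small. The coefficient of variation of the 9 tested members was 3.51% (*VRN1*) to 9.36% (*VRN5*), with a median of 5.43%, and the highest library was 1.12 to 1.36 times the lowest. Over all 20057 genes tested in the 10 libraries the median was 10.9%, and over the 7614 of them whose level lay within that of the members it was 8.00%. The spread relative to counting noise, as a chi-square per degree of freedom near 1 for counting alone, was 0.679 for *CLF*, 0.866 for *FIE*, 0.994 for *EMF2* and 1.43 for *LHP1*. It was 1.44 for *VRN1*, 1.84 for *VRN2*, 2.78 for *VRN5*, 3.45 for *SWN* and 5.15 for *VEL1*. For *CLF*, *FIE* and *EMF2* the spread over the libraries was thus no larger than that of counting.

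Part of this spread went with the replicate number, which the labels give. The labels do not say whether libraries of different genotypes with the same number were grown or prepared together. In a test chosen after seeing the data, replicate 2 was compared with replicate 1 over all genotypes by edgeR. *SWN* had 915, 874, 887, 886 and 911 normalized reads in replicate 2 of *fld*, *efl2 efl4*, *ld*, *sdg26 aprf1* and Col-0, against 1049, 996, 935, 924 and 989.5 in replicate 1. Replicate 2 was the lower in 5 of 5 genotypes, with a log2 difference of −0.13 (adjusted *p* = 0.0405). *SWN* was the only member of 9 to pass at an adjusted *p* under 0.05, against 29.2% of all genes. *FIE* was also lower in replicate 2 in 5 of 5 genotypes but did not pass (adjusted *p* = 0.230). Of 9 clock genes whose transcripts cycle over the day, 8 were tested and 6 passed in the same test, 5 of them lower and 1 higher in replicate 2. *GI*, an evening clock gene, was lower in replicate 2 by a log2 difference of −1.26 (adjusted *p* = 2.2e-04), and *PRR5*, a clock repressor, by −0.85 (adjusted *p* = 4.8e-05). *LUX*, an evening complex gene, was higher by 0.34 (adjusted *p* = 0.00617), and *CCA1* (adjusted *p* = 0.0611) and *LHY* (adjusted *p* = 0.455) did not pass. The part of sampling time in the *SWN* difference was not tested.

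**Figure D4:**
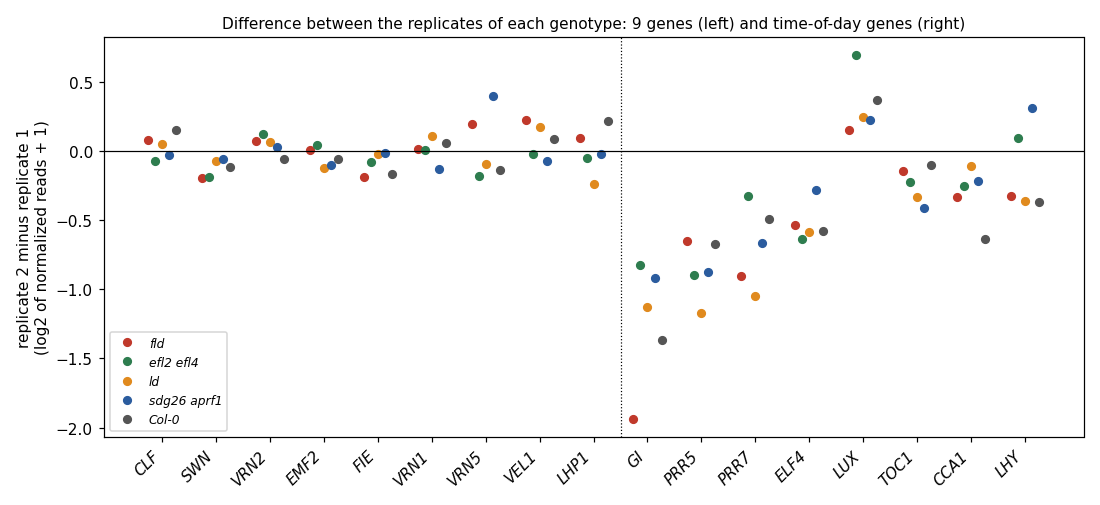
Replicate 2 minus replicate 1 within each genotype, on the log2(normalized reads + 1) scale (y axis), for 9 of the 10 genes left of the dotted line and for clock genes right of it (x axis), coloured by genotype. *SWN* and *FIE* are below 0 in 5 of 5 genotypes by at most 0.20, whereas *GI* is below 0 by up to 1.94.

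The other genes of Polycomb silencing were given by a list of 34 genes, including the remaining PRC2 and PRC1 subunits, the VAL proteins that recruit them and further *FLC* silencers. Of the 29 tested in each mutant, 0 passed the thresholds and 0 had an unadjusted *P* under 0.05 in limma in any mutant. The shares of all genes were those given above for the members. The median log2FC was −0.03 (*ld*) to 0.01 (*efl2 efl4*), beside a median of 0.00043 over all genes in *fld*. The largest log2FC of the list belonged to *VAL3*, a B3-domain relative of the VAL repressors, at −0.48 in *fld*, where it had 82.5 and 73.1 normalized reads in *fld*, against 125 and 93.8 in Col-0. The 5 genes not tested were nearly silent, as in the case of *VIN3*. *MEA* and *FIS2*, which encode PRC2 subunits of the endosperm, had 1 to 4 and 0 to 2 reads per library. *VEL2* and *VEL3*, the remaining relatives of *VIN3*, had 0 to 1 read each, and *BMI1C* had 0 to 5.

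Genes that act against Polycomb, the demethylases of lysine 27 and the Trithorax group, were given by a list of 12. In *fld* 12 were tested, in the other mutants 11, and 0 passed the thresholds in limma. At an unadjusted *P* under 0.05 there was 1 gene each in *fld*, *ld* and *efl2 efl4* and 0 in *sdg26 aprf1*, beside the shares of all genes given above. The exact test of edgeR called 1 in *fld*, where it called 128 of all 20068 genes tested. *ULT2*, a SAND-domain Trithorax factor, had 14.9 and 16.0 normalized reads in *fld*, against 4.00 and 6.91 in Col-0, a log2FC of 1.39 at an unadjusted *P* of 0.0193 (limma, adjusted *p* = 0.9996). It passed the filter on low values in *fld* alone, and there only through the *fld* libraries. Its *P* values, and the counts in *fld* that it makes up, are therefore no test. Its relative *ULT1*, named after its values were seen, had 319.7 and 438 normalized reads in *efl2 efl4*, against 192 and 279 in Col-0, a log2FC of 0.69. In limma its adjusted *p* was 0.999, or 0.00437 with the replicate block, and its replicate 2 was the higher in 5 of 5 genotypes.

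The genes that Polycomb silences were represented by 29 known targets, of which 12 or 13 were tested in each mutant. The rest had too few reads in these seedlings, such as *WUS* and *LEC1*, which had 0 reads in all 10 libraries. Passing genes were 5 in *fld*, 5 in *efl2 efl4*, 4 in *ld* and 2 in *sdg26 aprf1*, all genes of flowering. Over all genes the share was 0.394% in *fld*, 0.434% in *efl2 efl4*, 0.504% in *ld* and 0.498% in *sdg26 aprf1*. *FLC*, *MAF4* and *MAF5*, which encode related MADS-domain repressors of flowering, passed upwards, and *FT*, the mobile flowering signal, and *FUL*, a meristem gene named after its values were seen, passed downwards. *MAF5* had 77.5 and 94.1 normalized reads in *fld*, 103 and 112 in *efl2 efl4*, 44.4 and 78.5 in *ld*, and 44.3 and 29.8 in *sdg26 aprf1*, against 11 and 13.8 in Col-0. *FUL* did not pass in *ld* (log2FC −1.47, unadjusted *P* = 0.0287 in limma) and had a log2FC of −0.23 in *sdg26 aprf1*. *FLC* reached the filter on low values only through the mutant libraries, and *FT* in *fld* only through those of Col-0. The counts therefore describe the list and are no test of it. Leaving out each of the 4 libraries in turn kept the calls of *FLC* in all mutants, those of *MAF5* and *FT* in *fld*, *efl2 efl4* and *ld*, and that of *MAF4* in *efl2 efl4*. The other calls were lost in at least 1 of these fits. On leaving out a library, each lost call kept its sign and a |log2FC| of at least 1, and missed only the threshold on *P*. A lost call therefore need not mean a smaller difference, as for *FUL* in *fld*, whose log2FC was −1.36 with all 4 libraries. *FUL* in *fld* was lost without either replicate of *fld* (log2FC −1.36 and −1.37) or replicate 2 of Col-0 (−1.19). DESeq2 did not call it either, nor did limma fitted on all 10 libraries. *FUL* in *efl2 efl4* was lost without replicate 2 of Col-0 (−1.58). *MAF4* was lost in *fld* without replicate 1 of *fld* (1.71), and in *ld* without replicate 2 of *ld* (1.37) or of Col-0 (1.47). *MAF5* in *sdg26 aprf1* was lost without either replicate of *sdg26 aprf1* (1.21 and 1.76) or replicate 1 of Col-0 (1.33), and with DESeq2. Calls were gained for *FUL* in *ld* without replicate 1 of *ld* (−2.07), with the exact test of edgeR and with limma on all 10 libraries. *SEP3*, a floral organ gene, was gained in *fld* without replicate 1 of *fld* (−1.35). Floral organ genes of the list differed in level. *AG* had 1 to 9 reads per library and *AP3* had 0 to 7, whereas *SEP3* had 39 to 134.

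Finally, 13 genes induced by cold were examined, since *VIN3* is induced by cold. All genotypes were grown alike, so a comparison between them cannot show whether the seedlings met cold. Between 8 and 10 were tested in a mutant and 0 passed in limma. At an unadjusted *P* under 0.05 there was 1 in each of *fld*, *ld* and *efl2 efl4* and 0 in *sdg26 aprf1*, beside the shares of all genes given above. *COR15A*, a chloroplast protein gene of cold acclimation, had 1125 and 1251 normalized reads in *fld*, against 2344 and 1494 in Col-0, a log2FC of −0.66. Its adjusted *p* in limma was 0.9996, or 0.0316 with the replicate block. The cold regulator *CBF2*, named after its values were seen, had 28.0 normalized reads in replicate 1 of Col-0 but 1.98 in replicate 2, and 1 to 6.04 in the mutants. With all libraries *CBF2* was below the filter on low values in *fld* and *ld*. Its log2FC was −0.65 in *efl2 efl4* and −0.40 in *sdg26 aprf1*. Without replicate 2 of Col-0 the log2FC lay between −3.20 in *fld* and −2.05 in *sdg26 aprf1*. These values rest on 1 Col-0 library that all mutants share. Only through that library did *CBF2* reach the filter in *fld* and *ld*, so the values are no test.

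**Figure D5:**
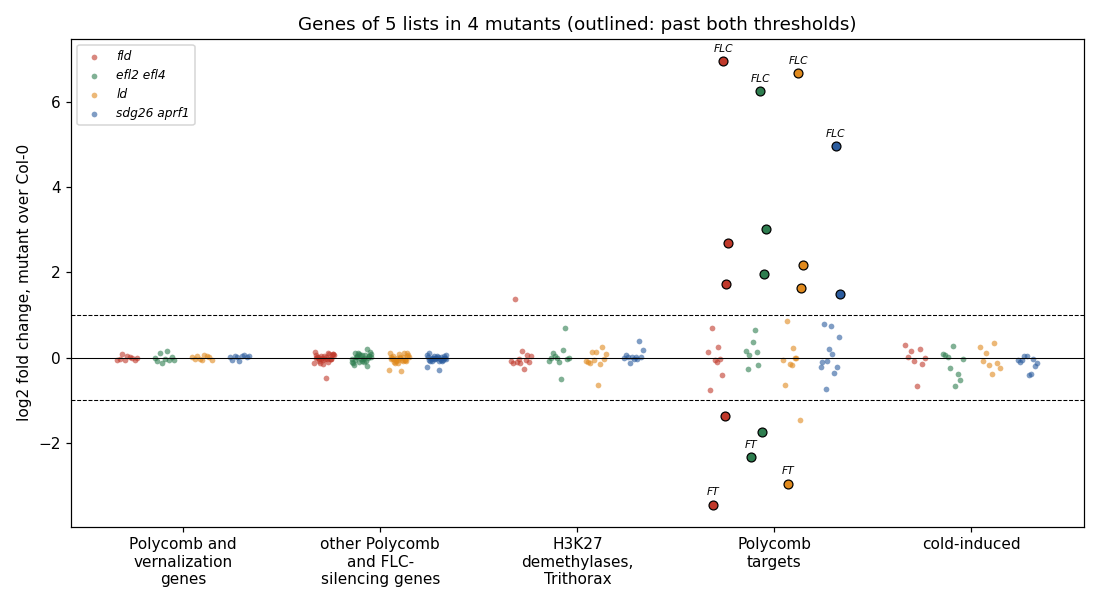
The log2FC of mutant over Col-0 (y axis) of each tested gene in 5 lists (x axis), coloured by mutant, with an outline for genes past both thresholds and dashed lines at a log2FC of 1 on either side. The 9 repressor genes and the other Polycomb genes lie near 0, and the outlined points are confined to the Polycomb targets, where *FLC* reaches 6.95 in *fld* and *FT* −3.44.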

How the data were processed

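RNA was extracted with TRIzol from seedlings, and single-ended reads of 50 bases were aligned to TAIR10 with HISAT2, counted on exons with featureCounts and normalized with edgeR (submitters' processing notes and methods). The deposited signal is the authors' normalized reads per gene, in 4 tables that each hold a mutant and the same Col-0 libraries. Dividing by the size of 1 read returned whole reads (within 0.1) for 99.0% to 100% of values. The labels do not say whether the 2 replicates came from separate cultures, so *p* values measure the spread between these libraries.

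Within each table, limma (3.58.1, with a variance trend) compared the mutant and Col-0 on log2(normalized reads + 1), two-sided, where the mean reached 10, a scale that shrinks changes at few reads. Calls needed |log2FC| of at least 1 and *P* under 0.01, and Benjamini-Hochberg adjustment was over all genes tested. Differences among genotypes were tested by the quasi-likelihood F test of edgeR (4.0.16) on the recovered reads of 10 libraries. On these reads the quasi-likelihood test against Col-0 called 84 genes in *fld*, 91 in *efl2 efl4*, 104 in *ld* and 106 in *sdg26 aprf1* at the thresholds. Levels were given as normalized reads on a scale common to the 10 libraries, and per kb of exon.

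Differences between replicates correlated between genotypes at 0.370 to 0.611 in all 10 pairs of genotypes over 20057 genes, so the replicate number was used as a block in an alternative. Other alternatives were DESeq2 (1.42.0), the tests of edgeR, pseudocounts of 0.5 and 5, filters, rescaling, relaxed thresholds and leaving out each library. The test of the replicate number and that of *FLC* among the mutants were chosen after seeing the data. The members and the other lists were chosen with earlier results of these data known. Named were the 10 members, *FLC*, and of each other list up to 4 genes with the largest |log2FC| among those called, or else the gene with the largest |log2FC|. Other genes of the lists, given for their few reads, with the replicate number, or for a call gained in an alternative, were chosen after their values were seen. Positions and sequences are from RefSeq on TAIR10.1, to which all 32548 identifiers matched. R 4.3.3 and Python 3.11.15 were used. The Poisson interval and the floor of *VIN3* cover counting error only, and the intervals of log2FC rest on the spread between libraries.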

Additional observations from a re-analysis of the deposited data

Results flagged for a closer look

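*FLC* differed among the 4 mutants in an F test of edgeR on the recovered reads (adjusted *p* = 0.00185), with 622 and 609 normalized reads in *fld*, 370.5 and 388 in *efl2 efl4*, 493 and 522 in *ld*, and 166 and 143 in *sdg26 aprf1*. With the replicate block the adjusted *p* was 2.6e-05. In the same test 0 of the 9 tested repressor genes differed among the mutants, with unadjusted *P* values of 0.270 (*VRN2*) to 0.894 (*VRN1*), against 0.165% of all genes past an adjusted *p* under 0.05. The groups had 2 libraries each, so none could be examined for a library far from the others.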

How the results depend on the processing

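The 36 log2FC of the tested repressor genes were each recomputed in 14 alternatives, 504 values in all. None passed a threshold, the values ranged between −0.22 and 0.23, and 40 changed sign, all with a size of at most 0.08 in the report. Counts of called members were 0 in every alternative run, and so were those of the F test. For the Polycomb targets the counts were 1 in *fld*, 2 in *efl2 efl4*, 1 in *ld* and 1 in *sdg26 aprf1* with a mean of at least 50 (fewer genes tested), and 1, 1, 1 and 0 with an adjusted *p* under 0.05. With a mean of at least 50, 41 of 17300 genes passed in *fld*, 50 of 17289 in *efl2 efl4*, 52 of 17268 in *ld* and 52 of 17308 in *sdg26 aprf1*. The shares by adjusted *p* are given above. In *sdg26 aprf1* the count was 1 with DESeq2, which called 98 of 20087 genes there. It was also 1 by adjusted *p* with the replicate block, against 0.0399% of all genes. On leaving out a library the call of *MAF5* there could be lost, as given above. For the Trithorax list the count was 1 in *fld*, *ULT2*, with the exact test of edgeR, which called 128 of 20068 genes there. The count was 1 each in *fld*, *efl2 efl4* and *ld* at |log2FC| of at least 0.5 and *P* under 0.05. The shares of all genes at these relaxed thresholds are not given here. By adjusted *p* with the replicate block the count was 1 in *efl2 efl4*, against 2.86% of all genes. For the cold-induced genes, leaving out a library changed the count only through *CBF2* without replicate 2 of Col-0. That gene was not tested in *fld* and *ld* with all libraries. The count was 1 in *fld* and 1 in *efl2 efl4* at the relaxed thresholds. With the replicate block and adjusted *p* it was 2 each in *fld* and *ld*, and 1 in *efl2 efl4*. The shares of all genes by that rule were 2.25%, 3.38% and 2.86%. The causes of these changes were not tested. Over all genes, the replicate block moved the calls at the thresholds to 132 in *fld*, 169 in *efl2 efl4*, 173 in *ld* and 140 in *sdg26 aprf1*, against 79, 87, 101 and 100 without it, and changed the call of no member. Leaving out 1 library leaves a genotype with 1 library, which is assumed to vary like the others. With 2 libraries per genotype, a change smaller than the distance from a repressor gene's log2FC to the end of its interval cannot be seen. A larger change with a |log2FC| under 1 cannot be called at the thresholds. *VIN3* has too few reads for any comparison.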
